A study of Mus musculus with 6 samples.

Results

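The genes described here code for core proteins of pre-mRNA splicing whose symbols begin with Srsf, Hnrnp, Sf3a, Sf3b, U2af or Snrpa to Snrpg. They were picked out by symbol, with rows marked as pseudogenes left out, and are 54 of the 49993 genes in the deposited count table. The choice was made with earlier results of these data known. By family they are 20 hnRNP proteins, 11 SR proteins, 3 U2AF subunits, 4 proteins particular to the U1 or U2 particle, 7 Sm core proteins, 3 subunits of SF3A and 6 of SF3B. All 54 are annotated as protein-coding, and they lie on 18 mouse chromosomes. The symbol rule left out 2 pseudogene rows of the Hnrnpa1 family, which held 1 to 10 counts in vitro and 7 to 31 counts in vivo.

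The study sequenced total RNA from mouse blastocysts to look for genes behind telomere shortening in culture. The in vitro group holds 3 libraries from embryos conceived in the mother, taken from the oviduct as zygotes 19 to 21 h after hCG, freed of cumulus cells with hyaluronidase, rinsed in mHTF-SSS and grown to blastocysts in KSOM drops under paraffin oil at 37 °C and 5% CO2. The in vivo group holds 3 libraries from blastocysts flushed out of the uterus on day 3.5 with mHTF-SSS, a human tubal fluid medium with serum substitute. All mothers of both groups were superovulated with the gonadotrophins PMSG at 10 IU and, 48 h later, hCG at 10 IU, and mated naturally. Blastocysts of both groups were picked by stage and morphology and frozen before extraction. The sample labels call each library 1 inner cell mass and its cell type embryonic stem cell, while the design text speaks of blastocysts, and no strain is named. No label says whether embryos came from separate mothers, so p-values measure only the spread between these libraries.

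Splicing begins when the U1 particle pairs with the start of an intron and the U2AF heterodimer reads the polypyrimidine tract and the AG at its end. U2AF helps to load the U2 particle, whose SF3A and SF3B subcomplexes hold it at the branch point, while a ring of Sm proteins forms the body of each of these particles. SR proteins bind exonic enhancers and mostly favour the use of nearby sites, whereas hnRNP proteins coat pre-mRNA, often favour exon skipping, and also act in the export, stability and translation of mRNA.

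The libraries held 6918288, 12735551 and 9212405 counts in vitro and 9174789, 10240704 and 17643429 counts in vivo, so that 3 counts in a library correspond to 0.215 to 0.525 CPM. CPM are counts brought to the same depth in each library, here on totals scaled by the trimmed mean of M values (TMM). Libraries of a group were not equally alike. Spearman's rho over the genes tested was 0.789 to 0.848 among the in vitro libraries, and 0.942 between in vivo replicates 1 and 2 but 0.786 and 0.793 between these and in vivo replicate 3. In vitro replicate 2 was nearer to in vivo replicates 1 and 2, with rho of 0.873 and 0.857, than to the other in vitro libraries. Of all counts, the 18S rRNA copy Rn18s-rs5 accounted for 36.1%, 35.8% and 40.4% in vitro and 16.7%, 22.2% and 41.7% in vivo. In vitro replicate 2 held 7494 counts of Xist, the X-inactivation transcript, and 1 count over the Y-linked genes Ddx3y, Eif2s3y, Kdm5d and Uty, while the other libraries held 8 to 341 counts of Xist and 1139 to 1693 of the Y-linked genes.

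Markers of both the inner cell mass and the trophectoderm were present in every library. Summed over 10 genes each, epiblast markers such as Pou5f1 and Nanog were at 2000, 1700 and 1410 CPM in vitro and 2170, 2270 and 1830 CPM in vivo. Trophectoderm markers such as Cdx2 and Krt8 were at 1400, 2300 and 2390 CPM in vitro and 1450, 908 and 767 CPM in vivo. Primitive endoderm markers such as Gata6 and Sox17 were at 1800, 1120 and 776 CPM in vitro and 521, 385 and 976 CPM in vivo. For both of these lineages the groups overlapped by 1 library on each side. Log2 fold changes, which set in vitro over in vivo throughout, were positive for 9 of 10 trophectoderm and 10 of 10 primitive endoderm markers but for 2 of 10 epiblast markers. The 10 cumulus cell markers summed to 0.146 to 1.82 CPM in vitro and 0 CPM in vivo, with Has2, Ptx3, Amh, Cyp19a1, Fshr and Lhcgr at 0 in every library. The 10 uterine markers summed to 59.5 to 184 CPM in vitro and 134 to 223 CPM in vivo, with Ltf, Pgr, Lcn2, Hoxa11, Wnt7a and Sprr2f at 0 in every library. Ctsd, a lysosomal protease made by most cells, supplied nearly all of that sum, at 59.2 to 181 CPM in vitro and 123 to 208 CPM in vivo. Muc1, also of that list, was at 0.175, 2.63 and 0.13 CPM in vitro and 10.3, 4.63 and 15.4 CPM in vivo, without overlap. Ctsd and Muc1 were the 2 uterine markers tested, with log2 fold changes of -0.66 ± 0.47 and -3.29 ± 1.27 (SE). For Muc1 the unadjusted p was 0.0285 and the adjusted p 0.44 by edgeR. The 8 blood cell markers summed to at most 3.64 CPM in vitro and 3.75 CPM in vivo, and the 8 oocyte markers were at 0.175, 5.93 and 2.73 CPM in vitro and 3.44, 4.39 and 99.4 CPM in vivo. Of the 99.4 CPM in in vivo replicate 3, Mos alone held 94.9. In bulk RNA of this kind fewer cells of a type and less RNA per cell cannot be told apart, and the part of these markers in the differences between splicing genes was not tested.

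No splicing gene passed the main test, and more of them lay above than below 0 on the log2 fold change scale. Summed over the 54 genes, the level on TMM-scaled totals was 8410, 6260 and 7050 CPM in vitro and 5210, 5050 and 5800 CPM in vivo, so each in vitro library lay above each in vivo library. Of the 54 genes, 52 had enough counts to be tested. Srsf12 had 0 counts in all 6 libraries, and Srsf4 had 0 to 13 counts in vitro and 6 to 27 in vivo. Values of 39 of the 52 (75.0%) were positive on the log2 fold change scale and the median was 0.34, against 49.8% and a median of -0.01 over all 14301 genes tested. The 3 in vitro values lay above all 3 in vivo values for 14 genes (26.9%) and below them for 2, Hnrnpab and Snrpa, against 9.27% and 10.0% of all genes. Among the 8156 genes with a mean of at least 10 CPM, 11.0% were higher and 10.3% lower in every in vitro library in this sense.

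After Benjamini-Hochberg adjustment over all genes, edgeR's quasi-likelihood test gave 0 of the 52 an adjusted p under 0.05, and 0% of all genes. At an unadjusted p under 0.05 there were 10 genes higher (19.2%) and 1 lower in vitro, against 5.11% and 5.08% of all genes, or 10.2% in both directions. DESeq2 called 1 splicing gene, U2af2, as higher in vitro. It called 3.00% of the 15775 genes with an adjusted p, with 1.65% as higher, and 382 of the 14301 genes above. limma-voom with quality weights called U2af2, Hnrnpdl and Hnrnpa3 as higher, against 0.713% of all genes and 0.441% as higher. With no filter on low counts, edgeR called U2af2 and Hnrnpa3 as higher. It called 1.40% of the 27882 genes then fitted, with 0.656% as higher, and 348 of the 14301 genes above. The newer form of its test called 0 splicing genes and 0.0210% of all genes. The sign of many single values depended on the scaling. With libraries scaled by their totals alone, the median of all genes moved to -0.31 and that of the splicing genes to 0.04. Of the 52 genes 29 were then positive, against 5175 of all 14301. Rescaling shifts all genes by about the same amount, so the distance between these medians could hardly change and is no separate evidence. As a share of all counts, ribosomal RNA included, the 54 genes made up 0.695%, 0.671% and 0.588% in vitro and 0.728%, 0.618% and 0.459% in vivo, which overlap.

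**Figure D1:**
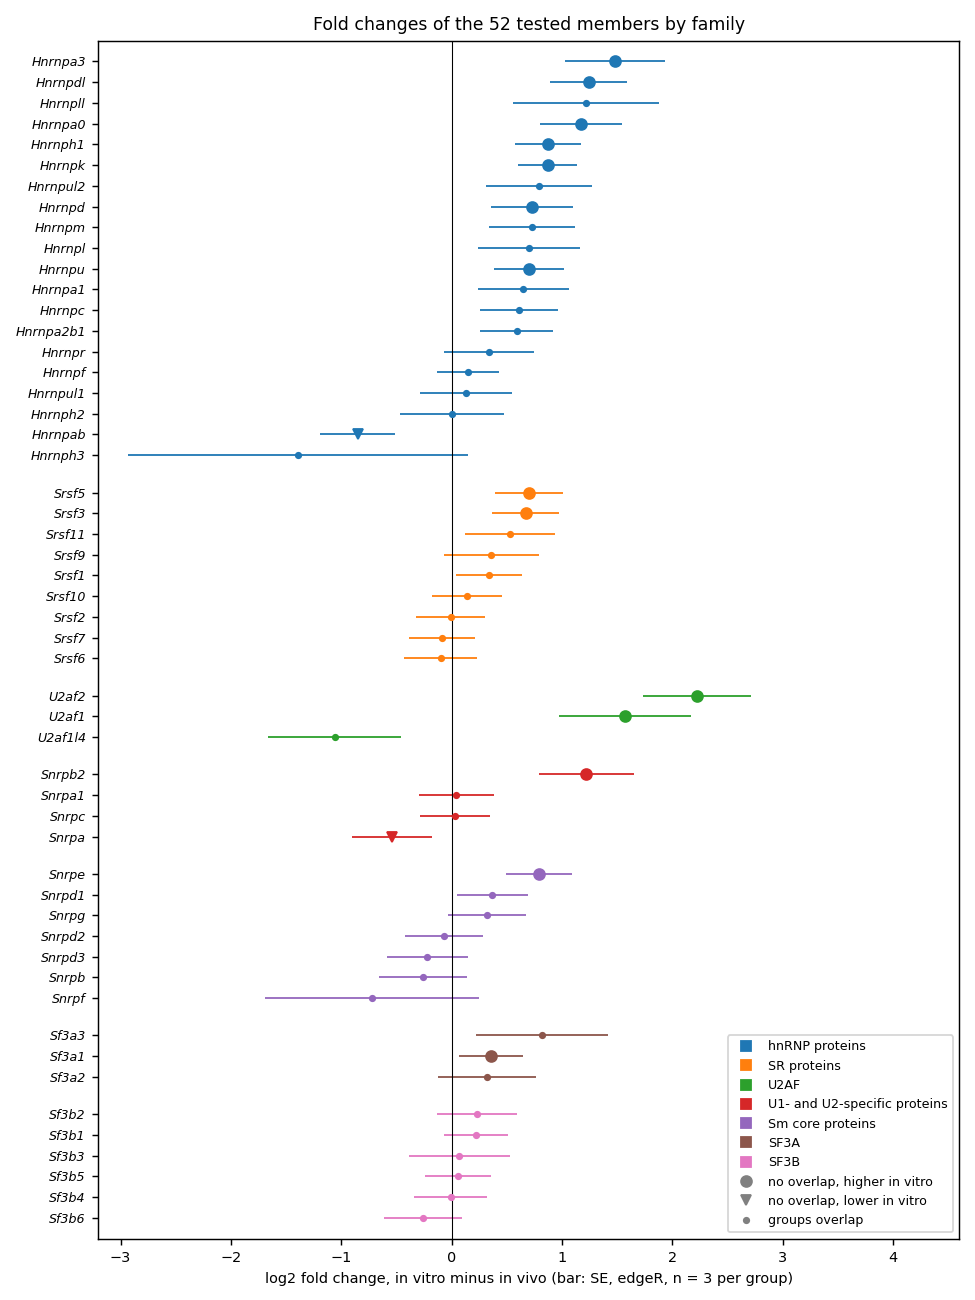
Log2 fold changes of the 52 tested splicing genes (in vitro over in vivo) with bars of 1 SE from edgeR's quasi-likelihood test (n = 3 libraries per group), ordered within each family. Large circles mark the 14 genes whose in vitro values all lay above the in vivo values, and triangles the 2 whose values all lay below. Of the 20 hnRNP genes 18 have positive values, counting Hnrnph2, which is 0.00 when rounded, while the SF3B genes sit near 0.

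In vitro replicate 1 gave the highest of the 6 values for 26 of the 52 genes and for 11 of the 14 that were higher in every in vitro library. Among the in vivo libraries, replicate 3 was the highest for 9 of these 14. How often these libraries were the highest over all genes was not taken, so these counts have no background. Without in vitro replicate 1 the median over the splicing genes was 0.20, against -0.02 over all genes. Without in vivo replicate 3 the median was 0.47, against 0.06 over all genes, and the groups did not overlap for 27 genes. This count is not comparable with the 16 from all libraries, since fewer libraries separate more easily. Its share over all genes was not taken.

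Promoter sequence is shown for genes named below because their values did not overlap between the groups and their single annotated promoter begins at the outer start of the gene. Of these, 4 were higher in every in vitro library and 1, Hnrnpab, was lower. Each line gives the 100 bases before the transcription start, 5′ to 3′ on the strand of the gene, from RefSeq on GRCm38.p6. Capitals mark the GC box GGGCGG, the CCAAT box CCAAT, the ETS core CGGAAG, the NRF1 core GCGCATGC and the TATA box TATAAA, each on either strand.
Hnrnpa0, chr13:58128557-58128656, - strand: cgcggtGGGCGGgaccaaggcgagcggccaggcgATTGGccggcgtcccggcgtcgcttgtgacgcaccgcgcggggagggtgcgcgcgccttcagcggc
Hnrnpab, chr11:51606882-51606981, - strand: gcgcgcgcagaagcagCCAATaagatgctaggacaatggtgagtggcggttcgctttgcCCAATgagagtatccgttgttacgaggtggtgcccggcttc
Snrpb2, chr2:143062969-143063068, + strand: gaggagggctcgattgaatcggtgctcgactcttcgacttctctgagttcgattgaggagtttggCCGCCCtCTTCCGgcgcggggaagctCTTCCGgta
Snrpe, chr1:133610281-133610380, - strand: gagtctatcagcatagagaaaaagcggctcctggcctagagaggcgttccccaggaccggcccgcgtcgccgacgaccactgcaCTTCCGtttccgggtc
Srsf3, chr17:29032560-29032659, + strand: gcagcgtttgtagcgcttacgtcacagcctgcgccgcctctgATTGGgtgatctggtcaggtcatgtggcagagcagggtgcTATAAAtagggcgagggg
In these windows Hnrnpa0 holds a GC box and a CCAAT box, Hnrnpab a pair of CCAAT boxes, Snrpb2 a GC box and a pair of ETS cores, Snrpe an ETS core, and Srsf3 a CCAAT box and a TATA box. RefSeq promoters were matched for 47 of the 54 genes and searched over 250 bases before the start. A gene counted as holding a motif if any of its promoters did. A GC box was found for 72.3% of these genes, against 35.4% of all 27025 genes with a promoter, and an ETS core for 55.3%, against 15.3%. The 27025 genes were not matched to the splicing genes for expression or CpG content. The CCAAT box was found in 46.8% against 37.5%, the NRF1 core in 8.51% against 2.56%, and the TATA box in 10.6% against 14.3%. The median splicing gene had 20 CpG dinucleotides, averaged over its promoters, against 6 over all genes with a promoter. The 13 matched genes that were higher in every in vitro library had a GC box in 76.9% and an ETS core in 61.5%, and the 30 whose groups overlapped had them in 66.7% and 53.3%. These are matches of letters only, with no measure of binding.

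The largest difference among the 52 genes was in U2af2, which codes for the large U2AF subunit that contacts the polypyrimidine tract (chr7:5060885-5079945 on GRCm38, + strand). It was at 115, 55.2 and 40.5 CPM in vitro and 11.3, 13.6 and 20.0 CPM in vivo, with means of 70.1 ± 39.2 and 15.0 ± 4.52 CPM (SD, n = 3 each). The lowest in vitro library lay above the highest in vivo library, and the spread was wider in vitro. The log2 fold change was 2.22 ± 0.49 (SE), or 4.66-fold, with an unadjusted p of 0.00136 and an adjusted p of 0.306 by edgeR's quasi-likelihood test, 0.00521 by DESeq2 and 0.0423 by limma-voom. Leaving out 1 library at a time gave log2 fold changes of 1.68 to 2.50 by edgeR. The DESeq2 call was lost without in vitro replicate 1 (adjusted p of 0.0799), in vivo replicate 1 (0.0548) or in vivo replicate 2 (0.0782). The limma-voom call held without in vivo replicate 3 (0.0257) and was lost without any of the other 5 libraries (0.0775 to 0.849).

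U2af1, the small subunit that recognises the AG at the end of the intron (chr17:31647081-31659148, - strand), was at 75.5, 21.5 and 21.5 CPM in vitro and 12.3, 9.74 and 17.9 CPM in vivo. The groups did not overlap, but in vitro replicate 1 stood far above the rest. The log2 fold change was 1.57 ± 0.60 (SE) with an unadjusted p of 0.0276 and an adjusted p of 0.434 by edgeR, and it was 0.70 without in vitro replicate 1. U2af1l4, a shorter relative of U2af1 that can take its place in the heterodimer (chr7:30563340-30565364, + strand), lay on the other side. It was at 5.95, 18.7 and 6.12 CPM in vitro and 18, 22.0 and 24.5 CPM in vivo, so the groups overlapped through in vitro replicate 2. Its log2 fold change was -1.06 ± 0.60 (SE, with an unadjusted p of 0.112 and an adjusted p of 0.590 by edgeR), and it ranged between -1.84 (in vitro replicate 2 left out) and -0.78 (in vitro replicate 1 left out). U2af1l4 overlaps Psenen on the opposite strand, and the library kit does not mark strand, so reads of the shared stretch cannot be assigned to one of them.

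**Figure D2:**
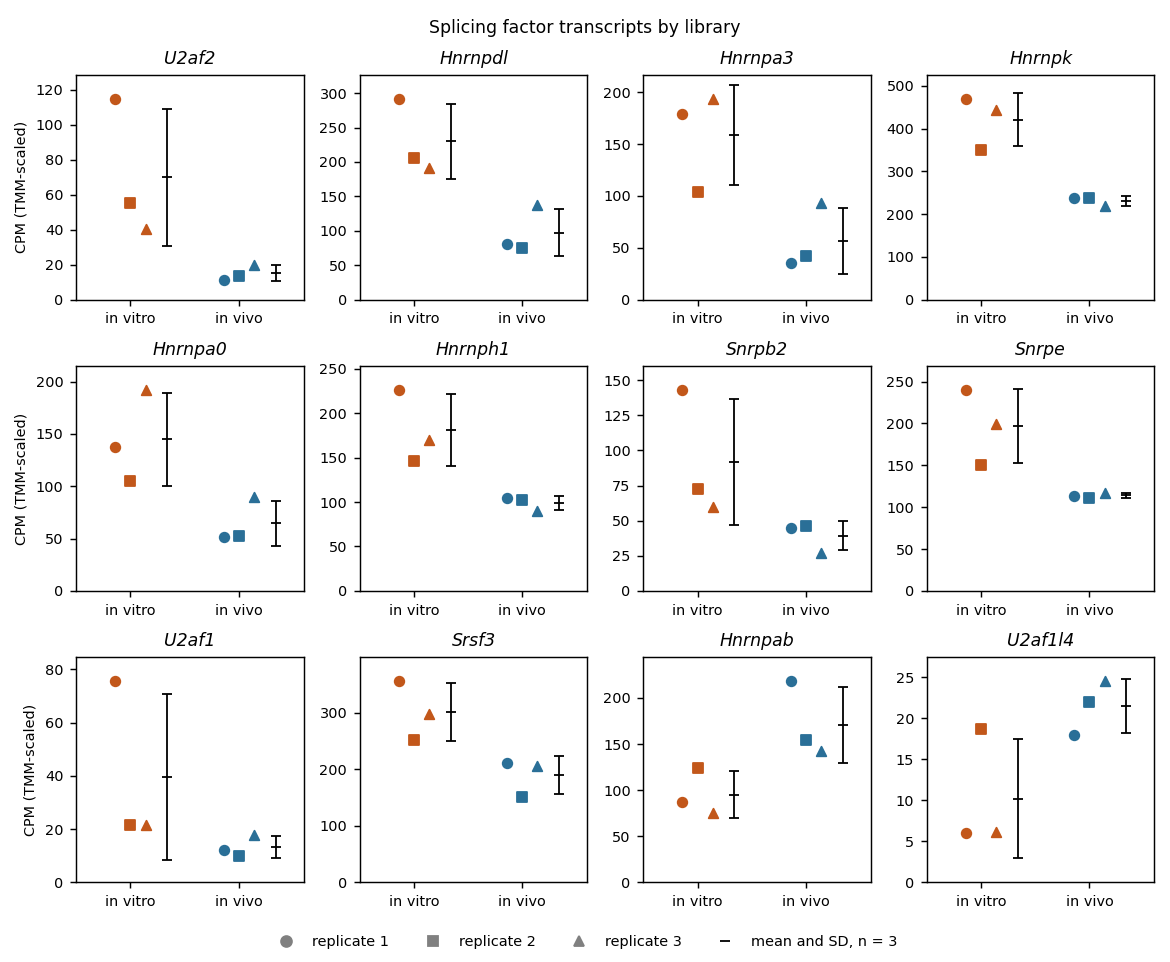
CPM on TMM-scaled totals in each library for 12 splicing genes, in vitro left of in vivo, with symbols for the replicate number and bars for mean and SD (n = 3 each). For 10 genes the 3 in vitro points lie above the 3 in vivo points. Hnrnpab lies below, and U2af1l4 overlaps through in vitro replicate 2.

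Of the 14 genes that were higher in every in vitro library, 7 code for hnRNP proteins, which is 35.0% of that family, against 9.27% of all genes. Of the 20 hnRNP genes 18 were positive, counting Hnrnph2, which was 0.00 when rounded. The family's median log2 fold change was 0.70, and its summed level was 4560, 3110 and 4190 CPM in vitro and 2350, 2340 and 2980 CPM in vivo. By contrast 1, Hnrnpab, was lower in every in vitro library, against 10.0% of all genes. By library totals alone the median was 0.42 and 15 of 20 were positive. Without in vitro replicate 1 the median was 0.45 with 18 of 20 positive, and without in vivo replicate 3 it was 0.84 with 17 of 20 positive.

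Hnrnpa3, an A/B-type hnRNP protein that also binds telomeric repeats (chr2:75659105-75669407, + strand), had the largest log2 fold change of the family. It was at 179, 104 and 194 CPM in vitro and 35.3, 41.8 and 93.6 CPM in vivo. In vivo replicate 3 came close to in vitro replicate 2, and the other in vivo libraries lay far below. The log2 fold change was 1.48 ± 0.45 (SE), or 2.79-fold, with an unadjusted p of 0.00942 and an adjusted p of 0.373 by edgeR, 0.0925 by DESeq2 and 0.0423 by limma-voom. The limma-voom call on Hnrnpa3 held without in vivo replicate 3 (adjusted p of 0.023) and was lost without any of the other 5 libraries (0.0746 to 0.849), with log2 fold changes down to 1.17. Hnrnpa0, an intronless relative that binds AU-rich elements (chr13:58125879-58128556, - strand), was at 138, 105 and 192 CPM in vitro and 51.1, 52.8 and 89.6 CPM in vivo, again with in vivo replicate 3 the highest of its group and no overlap. Its log2 fold change was 1.17 ± 0.37 (SE) with an unadjusted p of 0.0121 and an adjusted p of 0.396 by edgeR.

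The best known proteins of the A/B type had smaller differences, within the spread of the libraries. TPM are counts corrected for transcript length and brought to the same total in each library, without the TMM scaling used for CPM. Hnrnpa1, an antagonist of SR proteins that promotes exon skipping, was the most abundant hnRNP transcript per length, at 299 ± 103 TPM in vitro and 203 ± 26.9 TPM in vivo (SD, n = 3 each). In CPM it was at 444, 412 and 903 in vitro and 245, 344 and 534 in vivo. The groups overlapped through in vivo replicate 3, and the log2 fold change was 0.65 ± 0.41 (SE, with an unadjusted p of 0.152 and an adjusted p of 0.633 by edgeR). Hnrnpa2b1, which reads RNA sorting signals, was at 717, 423 and 630 CPM in vitro and 341, 316 and 517 CPM in vivo, with overlapping groups and a log2 fold change of 0.59 ± 0.33 (SE).

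The related genes Hnrnpdl, Hnrnpd and Hnrnpab, whose products bind AU-rich elements and single-stranded DNA, did not all lie on the same side. Hnrnpdl (chr5:100033577-100039936, - strand) was at 292, 205 and 191 CPM in vitro and 81.3, 74.3 and 137 CPM in vivo, with no overlap. Its log2 fold change was 1.24 ± 0.35 (SE) with an unadjusted p of 0.00666 and an adjusted p of 0.361 by edgeR, 0.082 by DESeq2 and 0.0422 by limma-voom. This limma-voom call also held without in vivo replicate 3 (0.0256) and was lost without any of the other 5 libraries (0.087 to 0.849). Hnrnpd, whose product AUF1 speeds the decay of many mRNAs, was at 136, 110 and 106 CPM in vitro and 50.8, 55.9 and 106 CPM in vivo. In vivo replicate 3 nearly met the lowest in vitro value, and the log2 fold change was 0.73 ± 0.37 (SE). Hnrnpab (chr11:51600100-51606881, - strand), whose promoter is printed above, was at 86.6, 124 and 75.1 CPM in vitro and 218, 154 and 142 CPM in vivo. It was the 1 gene of the 52 that was lower in every in vitro library with an unadjusted p under 0.05. Its log2 fold change was -0.85 ± 0.34 (SE) with an unadjusted p of 0.0323 and an adjusted p of 0.450 by edgeR. Scaling by library totals alone gave -1.18, with overlapping groups. Both Hnrnpdl and Hnrnpab overlap a gene on the opposite strand, Enoph1 with 111 to 558 counts in vitro and 211 to 499 in vivo, and Phykpl with 0 to 108 counts in vitro and 39 to 73 in vivo.

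Hnrnpk, a KH-domain protein that binds C-rich RNA and DNA (chr13:58391132-58403343, - strand), was at 470, 351 and 443 CPM in vitro and 238, 238 and 218 CPM in vivo. The in vivo libraries were close together, and all in vitro libraries lay above them. The log2 fold change was 0.87 ± 0.27 (SE) with an unadjusted p of 0.0112 and an adjusted p of 0.393 by edgeR. Hnrnph1, which binds runs of G (chr11:50375257-50386528, + strand), was at 226, 146 and 170 CPM in vitro and 105, 102 and 89.6 CPM in vivo. Its log2 fold change was also 0.87, ± 0.30 (SE), with an unadjusted p of 0.0182 and an adjusted p of 0.415 by edgeR. It was 0.50 by library totals alone, with overlapping groups. Its X-linked paralog Hnrnph2 was at 39.2, 40.8 and 39.7 CPM in vitro and 53.3, 50.1 and 16.3 CPM in vivo, a log2 fold change of 0.00 ± 0.47 (SE). In vitro replicate 2, which alone held high Xist, did not stand apart for Hnrnph2.

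Hnrnpu, the scaffold attachment factor that binds chromatin as well as RNA, was at 470, 261 and 279 CPM in vitro and 189, 198 and 234 CPM in vivo, with no overlap and a log2 fold change of 0.70 ± 0.32 (SE, with an unadjusted p of 0.0577 and an adjusted p of 0.504 by edgeR). By library totals alone its groups overlapped, at 0.38. The groups overlapped for the other hnRNP genes. Hnrnpll, a regulator of CD45 splicing in lymphocytes, was scattered, with 13.3, 32.5 and 82.8 CPM in vitro and 26.7, 17.7 and 10.9 CPM in vivo. The remaining positive log2 fold changes were 0.79 ± 0.48 for Hnrnpul2, 0.73 ± 0.39 for Hnrnpm, 0.70 ± 0.46 for Hnrnpl, 0.61 ± 0.35 for Hnrnpc, 0.34 ± 0.41 for Hnrnpr, 0.15 ± 0.28 for Hnrnpf and 0.13 ± 0.42 for Hnrnpul1 (SE). Hnrnpc binds tracts of U and Hnrnpl binds CA repeats. Hnrnph3 was low and scattered, with 2, 71 and 4 counts in vitro and 148, 57 and 2 counts in vivo.

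Among the SR proteins 9 of 11 genes were tested, 6 of them positive, with a median of 0.34 that was 0.05 by library totals alone. Srsf3, the smallest SR protein, without which mouse embryos do not form blastocysts (chr17:29032660-29043372, + strand), was at 356, 253 and 299 CPM in vitro and 212, 151 and 206 CPM in vivo. The groups did not overlap, and the log2 fold change was 0.67 ± 0.30 (SE) with an unadjusted p of 0.0486 and an adjusted p of 0.485 by edgeR. Its promoter, printed above, is the 1 of the 5 with a TATA box in the window. Srsf5, a shuttling SR protein, was at 188, 124 and 139 CPM in vitro and 109, 82.2 and 86.3 CPM in vivo, with no overlap and a log2 fold change of 0.70 ± 0.31 (SE, with an unadjusted p of 0.0518 and an adjusted p of 0.493 by edgeR). Both genes overlapped between the groups by library totals alone.

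Srsf2, a nuclear SR protein that binds exonic enhancers, was the most abundant SR transcript per length at 133 ± 44.1 TPM in vitro and 150 ± 62.7 TPM in vivo (SD, n = 3 each). It was at 402, 357 and 239 CPM in vitro and 397, 342 and 268 CPM in vivo, with a log2 fold change of -0.01 ± 0.31 (SE). The groups covered nearly the same range. Srsf1, which binds purine-rich exonic enhancers, had a log2 fold change of 0.34 ± 0.30, Srsf11 of 0.53 ± 0.41, Srsf9 of 0.36 ± 0.43, Srsf10 of 0.14 ± 0.32, Srsf7 of -0.09 ± 0.30 and Srsf6 of -0.10 ± 0.33 (SE). The groups overlapped for each of these 6.

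The proteins particular to the U1 or U2 particle went different ways. Snrpb2, the U2 protein that binds a stem-loop of the U2 RNA (chr2:143063069-143072052, + strand), was at 143, 72.2 and 59.5 CPM in vitro and 44.7, 46.1 and 27.3 CPM in vivo. The groups did not overlap, with in vitro replicate 1 far above the others. The log2 fold change was 1.22 ± 0.43 (SE) with an unadjusted p of 0.0192 and an adjusted p of 0.415 by edgeR, and 0.75 without in vitro replicate 1. By library totals alone the groups overlapped. Snrpa, its paralog in the U1 particle (chr7:27187006-27196271, - strand), was at 42.8, 52.2 and 48.6 CPM in vitro and 57.1, 54.7 and 96.9 CPM in vivo. It was lower in every in vitro library under both scalings, with a log2 fold change of -0.54 ± 0.36 (SE, with an unadjusted p of 0.165 and an adjusted p of 0.644 by edgeR), and it overlaps BC024978 on the opposite strand. Snrpa1, the partner of Snrpb2 on the U2 RNA, and Snrpc, which steadies the pairing of U1 with the intron, had log2 fold changes of 0.04 ± 0.34 and 0.03 ± 0.32 (SE). Snrpc, the most abundant of the 4 per length, was at 57.9, 61.2 and 47.1 CPM in vitro and 51.9, 52.6 and 58.4 CPM in vivo.

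Of the 7 Sm core proteins, which assemble into 1 ring in equal numbers, 3 were positive and 4 negative, with a median of -0.07. Snrpe, the Sm E protein (chr1:133603871-133610280, - strand), was the most abundant of all 54 genes per length, at 552 ± 98.4 TPM in vitro and 354 ± 83.3 TPM in vivo (SD, n = 3 each). It was at 240, 151 and 199 CPM in vitro and 113, 111 and 117 CPM in vivo. The in vivo values lay within a narrow range and the in vitro values above it, with a log2 fold change of 0.79 ± 0.30 (SE), an unadjusted p of 0.0259 and an adjusted p of 0.428 by edgeR. Snrpd1 and Snrpg had log2 fold changes of 0.37 ± 0.32 and 0.32 ± 0.35, Snrpd2 of -0.07 ± 0.35, Snrpd3 of -0.22 ± 0.37 and Snrpb of -0.26 ± 0.40 (SE), all with overlapping groups. Snrpf was far below the others, with 13, 87 and 10 counts in vitro and 94, 71 and 49 counts in vivo. Its mean of 8.57 TPM over the 6 libraries compares with 114 to 453 TPM for the other 6 Sm core transcripts.

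Among the 3 SF3A and 6 SF3B genes the groups were separate for 1, while they were separate for 19.3% of all genes. Sf3a1, the SF3A subunit with ubiquitin-like and SURP domains, was at 78.3, 82.1 and 85.4 CPM in vitro and 62.8, 60.5 and 68.2 CPM in vivo. Both groups were tight and did not overlap, and the log2 fold change was 0.36 ± 0.29 (SE, with an unadjusted p of 0.251 and an adjusted p of 0.726 by edgeR). It was 0.06 by library totals alone, with overlapping groups. Sf3a2, the most abundant of the 3 per length, was at 68.0, 53.3 and 24.2 CPM in vitro and 45.0, 29.9 and 41.8 CPM in vivo, and its log2 fold change was 0.32 ± 0.44 (SE). Sf3a3, at 95.0, 39.0 and 21.6 CPM in vitro and 18.8, 22.1 and 46.8 CPM in vivo, had a log2 fold change of 0.82 ± 0.60 (SE) and was high in 1 library, in vitro replicate 1. Without that library its log2 fold change was 0.06, and without in vivo replicate 3 it was 1.34.

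Sf3b1, the largest SF3B subunit, which clamps the branch point helix, was at 202, 248 and 163 CPM in vitro and 166, 175 and 185 CPM in vivo, with a log2 fold change of 0.22 ± 0.29 (SE). Sf3b5, the smallest subunit and the second most abundant of the 54 transcripts per length, was at 168, 193 and 125 CPM in vitro and 152, 175 and 141 CPM in vivo, with a log2 fold change of 0.06 ± 0.30 (SE). For all 6 SF3B genes the groups overlapped, and log2 fold changes lay between -0.26 and 0.23 with a median of 0.06. With libraries scaled by their totals alone 0 of the 6 were positive and the median was -0.24, against -0.31 for all genes.

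Ratios between related genes within a library do not depend on how libraries are scaled. They were taken in TPM for 10 pairs, chosen after the values of single genes had been seen, so they describe the same differences on a scale of their own. U2af1 over U2af1l4 was 10.4, 0.944 and 2.88 in vitro and 0.559, 0.362 and 0.599 in vivo. Hnrnpdl over Hnrnpab was 1.87, 0.919 and 1.41 in vitro and 0.207, 0.268 and 0.535 in vivo. Snrpb2 over Snrpa was 4.25, 1.76 and 1.56 in vitro and 0.999, 1.08 and 0.36 in vivo. In all 3 pairs the groups did not overlap, and the mean log2 ratio was higher in vitro by 2.62, 2.12 and 1.64. Leaving out in vitro replicate 1 gave 1.74 for U2af1 over U2af1l4, and leaving out in vitro replicate 2 gave 3.47.

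The same held with smaller differences for Hnrnpa3 over Hnrnpa2b1, Srsf3 over Srsf7 and Hnrnpdl over Hnrnpd, whose mean log2 ratios were higher in vitro by 0.97, 0.75 and 0.46. Hnrnpdl over Hnrnpd varied little within a group, at 3.69, 3.20 and 3.10 in vitro and 2.75, 2.28 and 2.22 in vivo. For these 6 pairs the two-sided exact permutation p was 0.1, and 0.167 after Benjamini-Hochberg adjustment over the 10 pairs. The smallest p that 3 against 3 libraries allow is 0.1, so no pair could fall under 0.05. As the pairs were chosen after values were seen, these p-values add nothing to the ratios. The groups overlapped for the other 4 pairs, Hnrnph1 over Hnrnph2, Hnrnpul2 over Hnrnpul1, Srsf1 over Srsf9 and Hnrnpa1 over Hnrnpa2b1, with differences of 0.67, 0.60, 0.11 and 0.03 on the log2 scale and exact permutation p of 0.3, 0.3, 0.9 and 1.0.

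**Figure D3:**
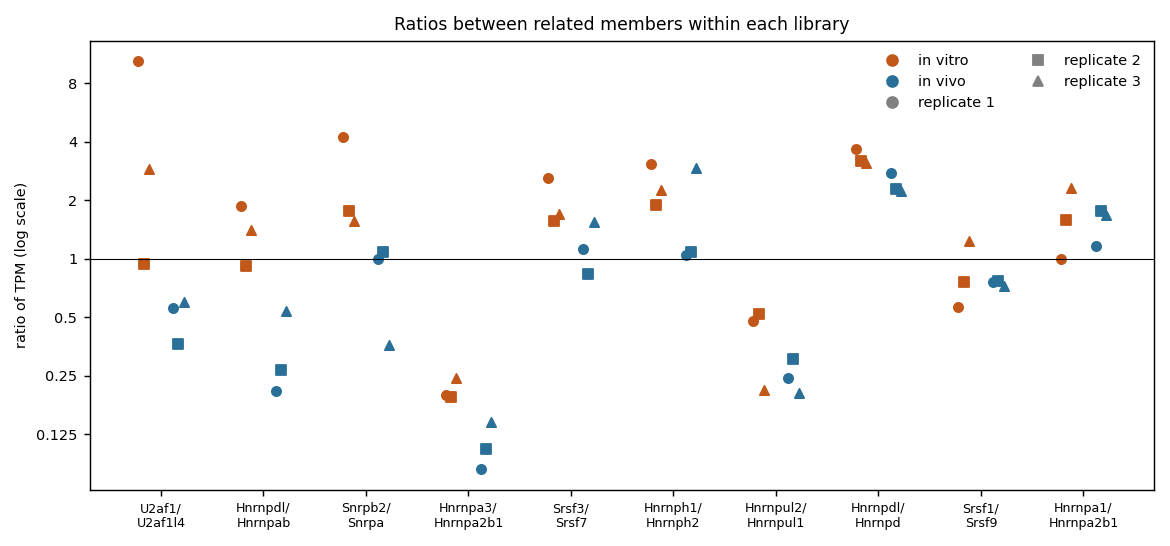
Ratio of TPM values between related splicing genes within each library, on a log scale, for 10 pairs with in vitro libraries left of in vivo libraries and symbols for the replicate number. In 6 pairs, U2af1/U2af1l4 and Hnrnpdl/Hnrnpab among them, the 3 in vitro ratios lie above the 3 in vivo ratios.

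Other genes of splicing were read from 8 lists, drawn up with earlier results of these data known. Among 24 other regulators of alternative splicing, 21 were positive, the median log2 fold change was 0.79, and 10 were higher in every in vitro library and 0 lower, against 9.27% and 10.0% of all genes. Their median was 0.48 by library totals alone. Celf2, a regulator that binds GU-rich RNA, was at 11.5, 20.3 and 44.6 CPM in vitro and 5.93, 3.27 and 0.931 CPM in vivo. Its log2 fold change was 2.91 ± 0.83 (SE), with an adjusted p of 0.359 by edgeR and 0.0159 by DESeq2. Leaving out in vitro replicate 3 gave 2.24 by edgeR, and leaving out in vivo replicate 1 gave 3.57.

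Among 15 SR-related regulators and SR kinases, 11 were positive with a median of 0.60, and 4 were higher in every in vitro library (26.7%) and 0 lower, against 9.27% and 10.0% of all genes. Acin1, which joins splicing to apoptotic chromatin condensation, had a log2 fold change of 1.24 ± 0.44, and Pnn, a protein of nuclear speckles and cell junctions, of 0.81 ± 0.35 (SE). Of the 14 proteins of the exon junction complex and nonsense-mediated decay 13 were positive, with a median of 0.29 that was 0.04 by library totals alone. Magoh, a core protein of that complex, was at 82.0, 71.8 and 76.8 CPM in vitro and 53.7, 71.4 and 65.9 CPM in vivo, a log2 fold change of 0.27 ± 0.31 that was -0.04 by library totals alone, and Upf3a, a decay factor, had one of 0.65 ± 0.49 (SE).

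Medians were nearer to 0 for the lists of proteins of the spliceosome itself. For 18 tested proteins of the other U1 and U2 list the median was 0.18 (-0.12 by library totals alone), for 23 proteins of the U4/U6 and U5 particles 0.06, for 20 of the Prp19 complex and the catalytic steps -0.05, and for 9 of the minor spliceosome -0.17. The RNA helicase Dhx15, which takes spliceosomes apart, had a log2 fold change of 1.06 ± 0.39, and Rbm17, a U2-associated protein, one of 0.69 ± 0.37 (SE). Prpf6, which bridges the tri-snRNP, was at 1.41 ± 0.60, and Lsm4, of the ring around U6, was at -0.85 ± 0.35 on the same scale (SE). Cdc5l, a scaffold of the Prp19 complex, was at 230, 218 and 183 CPM in vitro and 103, 106 and 77.6 CPM in vivo. Its groups lay well apart, with a log2 fold change of 1.14 ± 0.30 (SE) and an adjusted p of 0.321 by edgeR and 0.0376 by DESeq2. Bud31, of the activated spliceosome, was lower in every in vitro library, at 16.1, 24.4 and 12.6 CPM in vitro and 46.3, 78.2 and 35.7 CPM in vivo, with a log2 fold change of -1.59 ± 0.46 (SE).

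Among 14 proteins that assemble Sm rings, 0 were higher and 3 were lower in every in vitro library, against 9.27% and 10.0% of all genes, and the median was 0.04. Gemin6, a subunit of the SMN complex that holds Sm proteins, was at 26.6, 37.8 and 17.2 CPM in vitro and 66.5, 94.0 and 44.1 CPM in vivo, a log2 fold change of -1.32 ± 0.44 (SE). Smn1, the SMN protein itself, was at 31.5, 45.9 and 46.2 CPM in vitro and 58.5, 83.7 and 66.3 CPM in vivo, a log2 fold change of -0.75 ± 0.35 (SE). Neither gene's groups overlapped. By edgeR 0 genes of these lists had an adjusted p under 0.05.

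**Figure D4:**
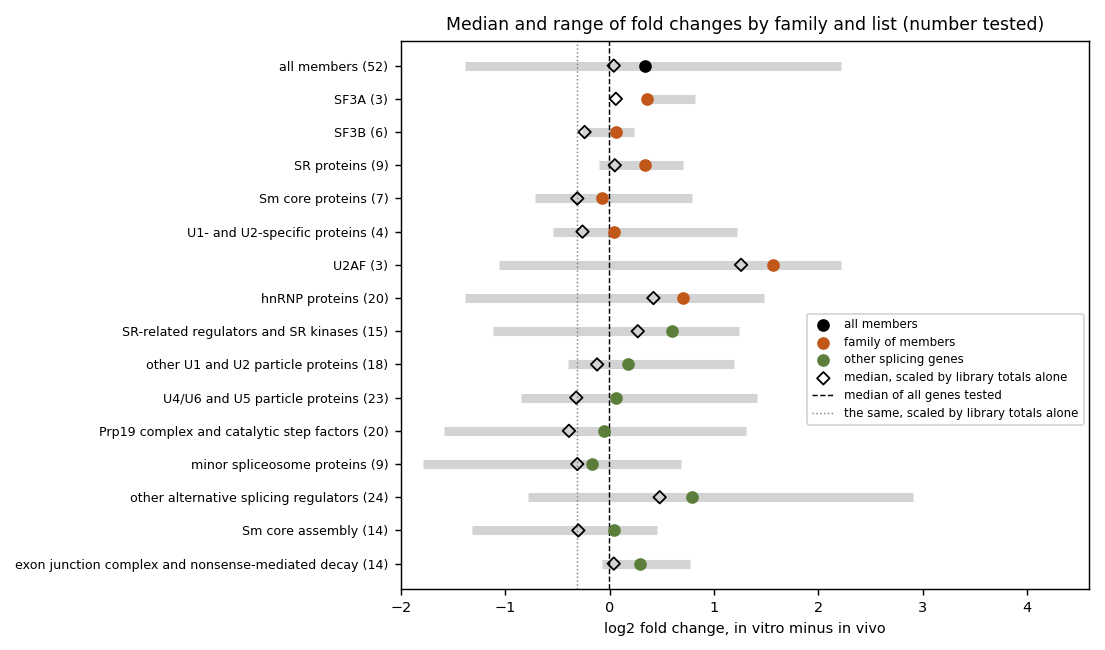
Median log2 fold change (in vitro over in vivo) of each family of the splicing genes (orange) and of 8 lists of other splicing genes (green), with the range in grey and the number tested in brackets. Open diamonds give the median with libraries scaled by their totals alone, and vertical lines the medians of all genes under either scaling, -0.01 and -0.31. The medians of the U2AF and hnRNP families and of the other alternative splicing regulators, 1.57, 0.70 and 0.79, lie farthest to the right.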

How the data were processed

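Per the labels' protocols, RNA was extracted with a microscale kit and libraries were built by a transposase kit, which leaves strand unmarked. What the authors deposited is a table of unnormalized counts, 1 column per library. FastQC 0.11.2, DESeq2 and GRCm39 are named by the submitters' processing notes. Aligner, counter and annotation were not given in the sources used here. Coordinates of all 54 genes equal RefSeq on GRCm38.p6, so they are given on GRCm38. The splicing genes, the other splicing lists and the cell type markers were chosen with earlier results of these data known.

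Counts were analysed as deposited in R 4.3.3 with edgeR 4.0.16: filter on low counts by group, TMM, robust legacy quasi-likelihood F-test, two-sided, Benjamini-Hochberg adjustment over 14301 genes, threshold 0.05. The common biological coefficient of variation was 0.727. SE was derived from the F statistic. Fits were tested on simulated data. DESeq2 1.42.0 and limma-voom 3.58.1, RLE scaling, library totals, other filters, a replicate block and leaving out each library were run beside it. TPM used merged exon lengths on the main chromosome, since the deposited lengths of 4 genes also count alternate contigs. PCR copies cannot be told from molecules, so the precision set by depth covers counting error only. Full values were given for genes with an unadjusted p under 0.05 and no overlap, up to 10 in each direction, and for the most abundant gene of each family. From each other list, up to 2 genes of smallest p with no overlap and a mean of at least 10 CPM were named, of which 1 is not reported here. Other genes were named after their values were seen.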

Additional observations from a re-analysis of the deposited data

How the results depend on the processing

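All genes called numbered 0 by edgeR, 473 by DESeq2, 102 by limma-voom, 391 by edgeR without a filter on low counts and 3 by edgeR's newer form. These counts are over 15775 genes for DESeq2, 27882 without the filter and 14301 for the others. Splicing genes called numbered 0, 1, 3, 2 and 0. Leaving out 1 library gave 0 to 5 splicing genes called by DESeq2 and 0 to 4 by limma-voom, in fits chosen after seeing the data. The shares of all genes called in these fits were not taken, so these counts have no background to be read against. The median log2 fold change of the splicing genes was 0.04 by library totals and 0.20 to 0.47 with 1 library left out. The genes whose groups did not overlap numbered 9 by library totals and 16 to 27 with 1 library left out. Fewer libraries separate more easily, and shares over all genes were not taken, so these counts are not comparable with each other.

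Signs turned for genes near 0. By library totals the values were -0.19 for Hnrnpf, -0.44 for Hnrnph2, -0.12 for Hnrnpul1, -0.06 for Sf3b1, -0.04 for Sf3b2, -0.23 for Sf3b3, -0.25 for Sf3b5, -0.26 for Snrpa1, -0.26 for Snrpc, -0.22 for Srsf10 and -0.04 for Magoh. By limma-voom they were -0.29 for Hnrnph2, -0.05 for Sf3b3, 0.24 for Snrpd2 and -0.00 for Srsf10. Hnrnph2 was at -0.03 without a filter and -0.00 with a stricter one, Sf3b3 at -0.05 with the replicate block, Sf3b4 at 0.00 by DESeq2 and by its size factors, and Srsf2 at 0.00 by the size factors. With 1 library left out the ranges were -0.37 to 0.24 for Hnrnph2, -0.07 to 0.54 for Hnrnpr, -0.06 to 0.52 for Hnrnpul1, -0.14 to 0.41 for Sf3b3, -0.12 to 0.12 for Sf3b4, -0.10 to 0.22 for Sf3b5, -0.14 to 0.14 for Snrpa1, -0.47 to 0.08 for Snrpb, -0.06 to 0.14 for Snrpc, -0.26 to 0.26 for Snrpd2, -0.16 to 0.18 for Srsf2, -0.31 to 0.01 for Srsf6, -0.22 to 0.02 for Srsf7 and -0.11 to 0.67 for Srsf9. For the ratios they were -0.26 to 0.34 for Hnrnpa1 over Hnrnpa2b1 and -0.20 to 0.37 for Srsf1 over Srsf9. The cause of these turns was not tested.

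Deviations of libraries with equal replicate numbers correlated at -0.099, 0.096 and -0.044, and those with unequal numbers at -0.09 to 0.116. These values show no sign of pairing by number but cannot exclude a shared mother or day. With the replicate block 0 splicing genes were called, and their median was 0.31.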
